A study of Mus musculus with 12 samples.

Results

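Ryr2, Slc8a1, Casq2 and Pln, 4 of the 13581 genes listed for each library, are genes through which heart muscle cells move calcium. They were taken by gene name, with the level of 5-hydroxymethylcytosine (5hmC) over the gene body and over the promoter window in each of 12 libraries. Tet enzymes make 5hmC by oxidising 5-methylcytosine. It was labelled with a modified glucose, biotinylated, pulled down and sequenced, and each level is the deposited FPKM, a read count scaled to the length of the region and to the depth of the library. The levels are scaled within each library, so they compare regions and libraries in relative terms only. They give neither an absolute amount of the mark nor the share of cytosines that carries it.

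Whole heart and whole liver came from C57BL6/j mice at embryonic day 14 (E14, 1 library for each tissue), as newborns of day 1 to 2 (P1, 2 libraries for each tissue) and as adults of 8 weeks (W8, 2 libraries for each tissue). The embryonic stem cells (ESC, 2 libraries) were of the EB5 line, of 129/Ola origin, and were grown with LIF. Sequencing was paired-end (75 bp) for P1 and ESC, and single-end (50 bp) for E14 and W8. Read format therefore cannot be told apart from age between P1 and either E14 or W8, nor strain from cell source between a tissue and ESC. Nothing in the labels tells whether replicates are separate animals or cultures, and the spread behind each p-value is that between libraries and may be technical.

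In heart muscle, the action potential opens calcium channels of the surface membrane, and the entering calcium opens the ryanodine receptor RYR2, the release channel of the sarcoplasmic reticulum. Calsequestrin 2, the product of Casq2, buffers calcium inside that store. During relaxation the pump SERCA2a, the product of Atp2a2, returns calcium to the store under the restraint of phospholamban, the product of Pln, while the sodium-calcium exchanger NCX1, the product of Slc8a1, carries calcium out of the cell. 5hmC over gene bodies is known to be enriched at genes that are active in a tissue, but it is a DNA mark and not a measure of RNA.

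The 4 genes differ widely in length, which sets how many reads each level rests on. In mm9, with coordinates from 1, the Ryr2 body (NM_023868) was listed at chr13:11645370-12197212 on the minus strand, the Slc8a1 body (NM_001112798) at chr17:81785359-82046947 on the minus strand, the Casq2 body (NM_009814) at chr3:101892338-101950437 on the plus strand, and the Pln body (NM_001141927) at chr10:53059492-53065805 on the plus strand. The chromosomes come from RefSeq, since the tables name none. A body covers exons and introns together. The Ryr2 body is 551843 bp long and the Pln body 6314 bp long. Each promoter window is 4000 bp long and adjoins the upstream end of the body as listed. For Ryr2, Casq2 and Pln the RefSeq gene is 2004, 2000 and 2000 bp longer than the listed body, so the window lies about 2000 bp to each side of the RefSeq start. For Slc8a1 the RefSeq gene is 103694 bp longer. Length alone does not tell at which end, so its window could not be placed against the RefSeq start.

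The DNA at the starts of Ryr2, Casq2 and Pln is shown because 5hmC in mammals sits mainly at CG pairs, which the 3 starts hold in very different numbers. The 300 bases run from 250 before to 50 after the RefSeq start, 5′ to 3′ on the strand of the gene, in build GRCm38.p6, at chr13:12106896-12107195 (minus) for Ryr2, chr3:102086165-102086464 (plus) for Casq2 and chr10:53337436-53337735 (plus) for Pln. Capitals mark each CG pair.
Ryr2: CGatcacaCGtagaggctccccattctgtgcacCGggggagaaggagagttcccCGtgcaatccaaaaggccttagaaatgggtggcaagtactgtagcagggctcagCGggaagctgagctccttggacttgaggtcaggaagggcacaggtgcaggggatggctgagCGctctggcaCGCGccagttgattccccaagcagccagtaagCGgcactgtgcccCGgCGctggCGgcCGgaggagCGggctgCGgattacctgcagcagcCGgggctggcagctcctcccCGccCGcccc
Casq2: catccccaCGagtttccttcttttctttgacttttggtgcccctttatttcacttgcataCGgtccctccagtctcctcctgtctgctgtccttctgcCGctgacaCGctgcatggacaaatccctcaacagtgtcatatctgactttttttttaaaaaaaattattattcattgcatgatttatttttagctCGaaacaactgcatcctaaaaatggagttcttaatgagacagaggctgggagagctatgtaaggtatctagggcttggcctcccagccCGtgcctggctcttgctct
Pln: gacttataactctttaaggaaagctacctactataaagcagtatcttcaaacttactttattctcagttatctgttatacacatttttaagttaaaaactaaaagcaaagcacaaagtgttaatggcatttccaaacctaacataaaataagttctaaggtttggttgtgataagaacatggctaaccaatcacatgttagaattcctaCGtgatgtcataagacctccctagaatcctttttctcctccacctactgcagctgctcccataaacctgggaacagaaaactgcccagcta

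The Ryr2 start holds 18 CG pairs and is 65.3% G or C. The Casq2 start holds 6 CG pairs at 44.7% G or C, and the Pln start holds 1 CG pair at 36% G or C. Over 32851 RefSeq promoters of the same length the medians were 7 CG pairs and 52.7% G or C, and 70.3% of them held fewer CG pairs than Ryr2, 43.6% fewer than Casq2 and 5.43% fewer than Pln. Both strands were searched for 4 motifs. The Pln start holds AGATAA, the form of site that GATA factors bind, which 11.2% of all the promoters hold, and TATAAA, which 13.6% hold. The Casq2 start holds a match to the MEF2 motif, found in 3.19% of promoters. No CArG box, the serum response factor motif, was matched in the 3 sequences, against 1.63% of all promoters. A match is a string of letters and not a measured site.

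Of the 12 libraries, 1 stood apart. W8 heart replicate 2 held 142778 reads over gene bodies, against 604012 to 5761636 in the other 11 libraries, and 9.94% of its bodies and 46.1% of its promoter windows had no read. Most gene body tests of the 4 genes and of the other calcium genes are therefore also given without it. All other results include it unless stated. The labels were checked on marker genes. The gene bodies of 6 heart muscle markers summed to 20.2 FPKM in E14 heart, 10.4 to 12.9 in P1 heart and 9.47 to 15.2 in W8 heart, against 4.26 in E14 liver, 2.96 to 3.40 in P1 liver and 2.55 to 2.88 in W8 liver. The 5 listed hepatocyte markers summed to 2.02, 2.88 to 2.95 and 2.49 to 6.92 FPKM in E14, P1 and W8 heart, against 3.25, 8.17 to 8.47 and 8.11 to 8.24 FPKM in E14, P1 and W8 liver. The value of 6.92 belongs to W8 heart replicate 2, from 53 reads in all, and W8 heart replicate 1 had 2.49 FPKM from 768 reads. By group means 6 of the 6 heart muscle markers were higher in heart at P1, and 5 of 6 at E14 and at W8, the exception being Nkx2-5, a transcription factor of heart muscle with 10 reads or fewer in each library. Of the 5 hepatocyte markers, 0 were higher in heart at E14 and P1, and 2 at W8. These were Alb, which encodes albumin, with 0.320 and 1.57 FPKM in W8 heart, against 0.279 and 0.324 FPKM in W8 liver, and Ttr, which encodes transthyretin, with 0.645 and 3.44 FPKM in W8 heart, against 0.781 and 0.784 FPKM in W8 liver. The higher value of each in W8 heart is that of replicate 2. The pluripotency markers did not set ESC apart. The 4 listed of them summed to 3.66 to 3.93 FPKM in ESC, against 3.83 to 4.34 FPKM in P1 heart and 2.39 to 3.29 FPKM in P1 liver, and 2 of the 4, Esrrb and Klf4, had their highest mean in ESC. Pou5f1, which encodes a defining factor of pluripotent cells, had 0 and 1 read in ESC.

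Ryr2, the release channel, had its highest gene body FPKM in newborn heart, where read format also differs from E14 and W8. Its gene body had 0.579 FPKM in E14 heart, 1.01 and 1.12 FPKM in P1 heart and 0.694 and 0.355 FPKM in W8 heart. In liver it had 0.335 FPKM at E14, 0.287 and 0.261 FPKM at P1 and 0.104 and 0.104 FPKM at W8, and in ESC 0.488 and 0.446 FPKM. At each age the heart libraries lay above the liver libraries, and liver levels were lowest in the adult. These levels rest on 64 reads in W8 heart replicate 2 and on 151 to 2870 reads in the other libraries, and counting alone gives an error of 12.5% of the level in that library and of 1.87% to 8.14% in the others. Within its own library the Ryr2 body stood at percentiles 62.2 and 73.3 of all gene bodies in P1 heart, against percentiles 10.1 and 8.92 in P1 liver.

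Slc8a1, the exchanger, had the widest gap between newborn heart and ESC among the 4 genes. Its body had 0.932 FPKM in E14 heart, 1.49 and 1.50 FPKM in P1 heart and 1.10 and 0.398 FPKM in W8 heart. In liver it had 0.357 FPKM at E14, 0.525 and 0.431 FPKM at P1 and 0.192 and 0.211 FPKM at W8, and in ESC 0.245 and 0.242 FPKM. The P1 heart replicates nearly coincided, whereas the W8 heart replicates lay far apart, replicate 2 with 34 reads and replicate 1 with 2092.

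Casq2, the calcium buffer of the store, had the highest levels of the 4 genes in stem cells. Its body had 1.01 FPKM in E14 heart, 1.65 and 1.41 FPKM in P1 heart and 0.840 and 0.477 FPKM in W8 heart. In liver it had 0.546 FPKM at E14, 0.812 and 0.667 FPKM at P1 and 0.221 and 0.189 FPKM at W8. ESC had 1.26 and 1.20 FPKM, below both P1 heart libraries and above every liver library. W8 heart replicate 2 held 9 reads over this body, and its 95% counting interval was 0.217 to 0.902 FPKM.

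Pln, the pump inhibitor, followed another order. Its body had 7.07 FPKM in E14 heart, 0.746 and 0.584 FPKM in P1 heart and 1.72 and 3.89 FPKM in W8 heart. In liver it had 0.967 FPKM at E14, 0.498 and 1.69 FPKM at P1 and 1.43 and 1.58 FPKM at W8, and in ESC 0.471 and 0.360 FPKM. The E14 heart level came from 354 reads, and only 3 gene bodies of that library were higher. The P1 values rest on 6 and 4 reads in heart, against 3 and 38 reads in liver, and the W8 values on 79 and 8 reads in heart, against 80 and 81 in liver. The 95% counting intervals of the P1 heart libraries were 0.274 to 1.62 and 0.159 to 1.50 FPKM, so that with its short body Pln was measured with little precision at P1. In RefSeq the Pln gene lies within the span of Cep85l, so reads there cannot be assigned to 1 gene.

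**Figure D1:**
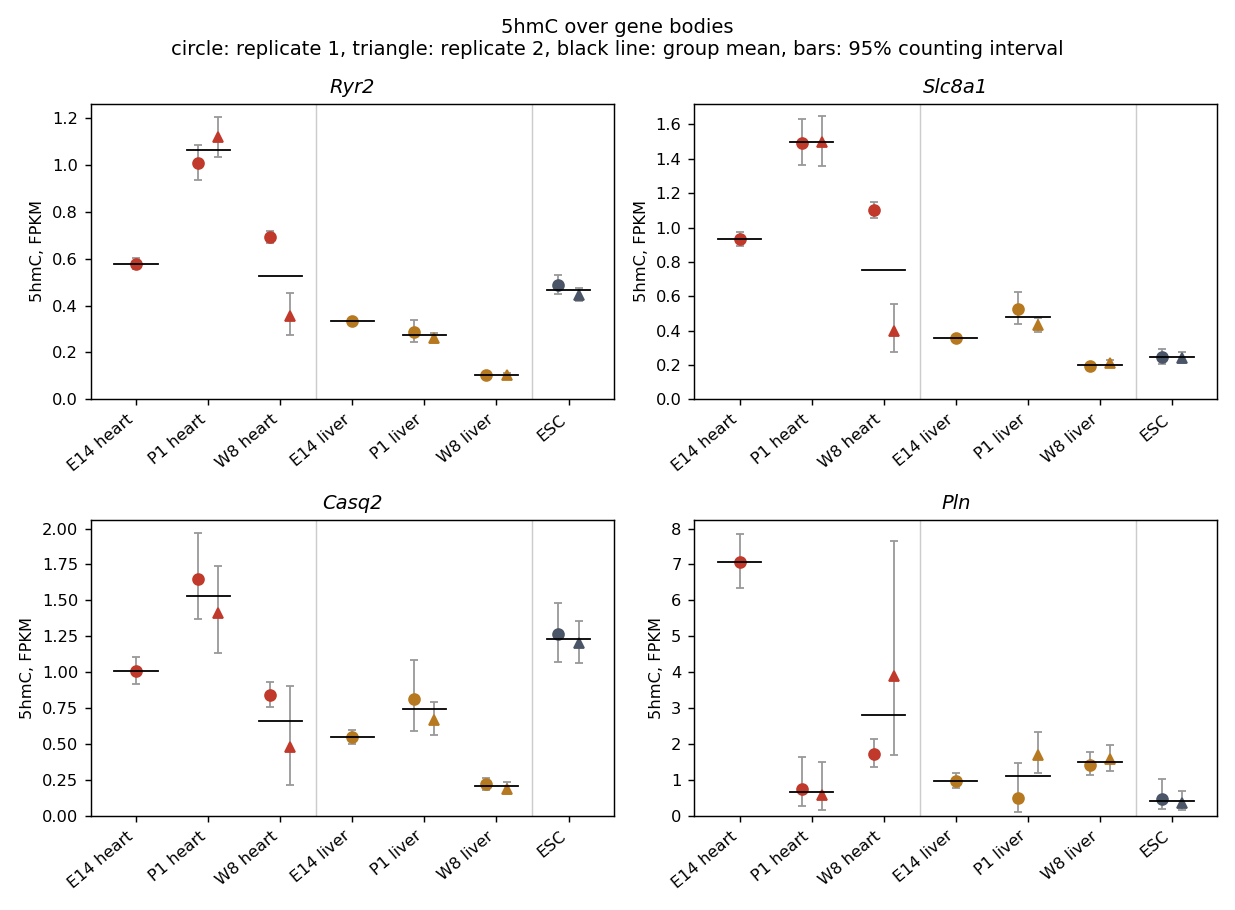
5hmC over the gene bodies of Ryr2, Slc8a1, Casq2 and Pln, with the level in FPKM on the vertical axis and the 7 groups on the horizontal axis, heart by age, then liver by age, then ESC. Circles and triangles are replicates 1 and 2, black lines group means and grey bars 95% counting intervals. Ryr2, Slc8a1 and Casq2 have their highest means in P1 heart, and Pln stands at 7.07 FPKM in E14 heart.

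In order of group means, Ryr2 ran from P1 heart (1.06 FPKM) through E14 heart (0.579), W8 heart (0.524), ESC (0.467), E14 liver (0.335) and P1 liver (0.274) to W8 liver (0.104). The neighbours E14 heart and W8 heart, and W8 heart and ESC, overlapped in range and differed by less than the SD of W8 heart, which was 0.240 FPKM (n = 2). Slc8a1 ran from P1 heart (1.50) through E14 heart (0.932), W8 heart (0.750), P1 liver (0.478), E14 liver (0.357) and ESC (0.243) to W8 liver (0.201), and W8 heart overlapped both of its neighbours. Casq2 ran from P1 heart (1.53) through ESC (1.23), E14 heart (1.01), P1 liver (0.740), W8 heart (0.658) and E14 liver (0.546) to W8 liver (0.205), with W8 heart again overlapping both neighbours. W8 liver came last for these 3 genes. Pln ran from E14 heart (7.07) through W8 heart (2.80), W8 liver (1.50), P1 liver (1.09), E14 liver (0.967) and P1 heart (0.665) to ESC (0.415), and P1 liver, with an SD of 0.843 FPKM (n = 2), overlapped W8 liver and E14 liver.

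Relative to the other gene bodies of the same library, Pln and the other 3 genes changed places. In E14 heart Pln stood above 99.98% of bodies, and Slc8a1, Casq2 and Ryr2 stood at percentiles 71.0, 75.3 and 41.9. In P1 heart Casq2 and Slc8a1 stood between percentiles 83.2 and 87.2, and Pln at 45.1 and 37.5. In W8 heart replicates 1 and 2 Slc8a1 stood at percentiles 86.5 and 33.0, and Casq2 at 71.6 and 39.8. By rank, Slc8a1 in W8 heart replicate 1 was thus not below P1 heart. In W8 liver Ryr2 stood at percentiles 3.91 and 4.07, while Pln stood at 80.0 and 84.5.

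**Figure D2:**
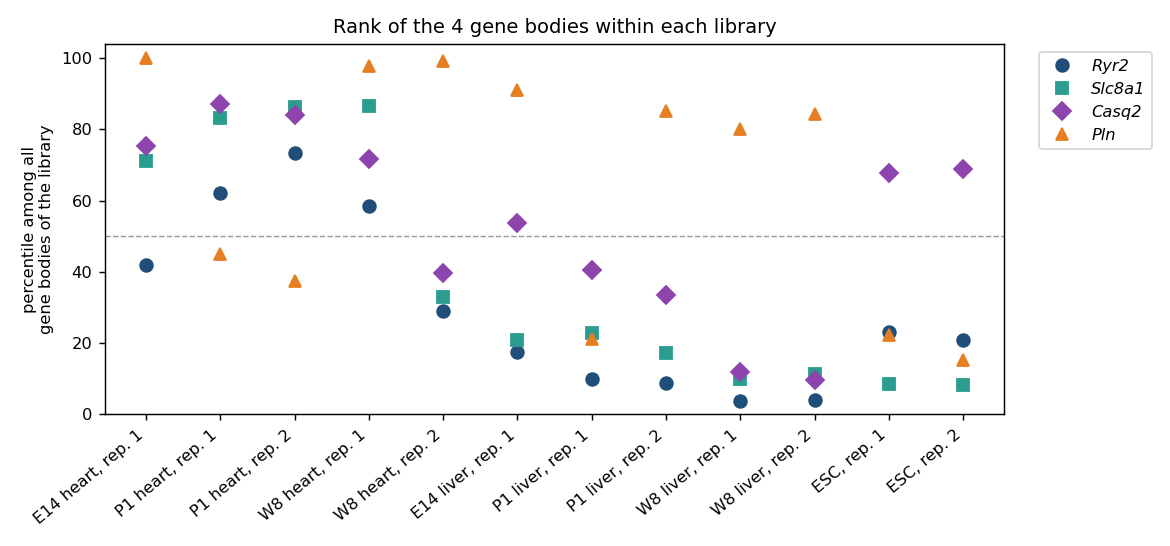
Percentile of each of the 4 gene bodies among all gene bodies of the same library, on the vertical axis, in the 12 libraries on the horizontal axis. The dashed line marks the middle of each library. Ryr2 (circles) stands at percentiles 3.91 and 4.07 in W8 liver, and Pln (triangles) stands near the top in E14 heart and in both W8 heart libraries.

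The question of how heart differs from liver was tested over all gene bodies with limma, on log2(FPKM + 0.0746), with p-values adjusted over the 12871 bodies that passed a filter on low values. All 4 genes passed the filter in both kinds of region. At P1, Ryr2 was higher in heart than in liver. The difference between P1 heart and P1 liver was 1.71 ± 0.27 (log2, SE), which is 3.26-fold, with an adjusted p of 0.0430. Slc8a1 differed by 1.51 ± 0.38 and Casq2 by 0.98 ± 0.25, with adjusted p = 0.0791 and 0.0814, and for both genes the 2 heart libraries lay above the 2 liver libraries. Pln differed by -0.45 ± 0.56 (adjusted p = 0.644), and its groups overlapped. The call for Ryr2 set 1 of the 4 genes past the threshold in the upward direction, where 0.365% of all bodies tested were called higher and 2.04% lower (47 and 262 of 12871). The median difference of all bodies was -0.24. With each library centred on its median, the 3 differences were 1.96, 1.77 and 1.23, Ryr2 kept its call at adjusted p = 0.0463, and the calls over all bodies were 79 higher and 47 lower.

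The newborn comparison depended on the adult heart libraries although they are not part of it, because 1 estimate of the spread was shared over all groups. When W8 heart replicate 2 was left out, the differences at P1 were the same, and Ryr2, Slc8a1 and Casq2 had adjusted p = 0.00453, 0.00457 and 0.0102. That fit called 3 of the 4 genes higher in P1 heart, where 5.78% of all bodies were called higher. Leaving out W8 heart replicate 1 in its place also gave more calls, among these genes and among all bodies alike. Most of the calls over all bodies were lost without any 1 of the ESC, P1 heart, P1 liver or W8 liver libraries. The call for Ryr2 was lost in each of these fits as well, at a difference of 1.64 to 1.78. It was also lost when the P1 heart and P1 liver libraries were fitted alone (adjusted p = 0.0922), a fit that called 0 of all bodies.

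At W8, Ryr2, Slc8a1 and Casq2 were higher in heart than in liver. W8 heart exceeded W8 liver by 1.68 ± 0.27 for Ryr2 (3.22-fold, adjusted p = 0.00771), by 1.43 ± 0.38 for Slc8a1 (2.70-fold, adjusted p = 0.0304) and by 1.35 ± 0.25 for Casq2 (2.54-fold, adjusted p = 0.0111). For these 3 genes both heart libraries lay above both liver libraries. Pln also had both heart libraries above both liver libraries, and its difference of 0.76 ± 0.56 did not pass the threshold (adjusted p = 0.322). Thus 3 of the 4 genes were called higher, where 9.13% of all bodies were called higher and 22.2% lower (1175 and 2851 of 12871), and the median of all bodies was -0.35. After median centring the 3 differences were 2.01, 1.76 and 1.67, and the calls over all bodies were 1994 higher and 1287 lower. Leaving out W8 heart replicate 2, the differences were 2.11 ± 0.16, 2.09 ± 0.16 and 1.71 ± 0.18, with adjusted p = 0.00234, 0.00234 and 0.00290, and 12.5% of all bodies were called higher. Pln then differed by 0.19 ± 0.60 (adjusted p = 0.819). In that fit W8 heart was 1 library, assumed to vary like the other groups. With W8 heart replicate 2 as the only W8 heart library, Ryr2, Slc8a1 and Casq2 differed by 1.26, 0.78 and 0.98.

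All 3 calls at W8 were lost without either W8 liver library, as was every call over all bodies. The call for Slc8a1 was lost also without either ESC library or either P1 liver library, fits in which fewer of all bodies were called. With the W8 heart and W8 liver libraries fitted alone the adjusted p of the 3 genes was between 0.1005 and 0.161, and 0 of all bodies were called. With library weights it was 0.0629 for Slc8a1 and 0.0578 for Casq2, and Ryr2 kept its call.

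Some marker lists of other cell types were also higher in heart, and others were lower or overlapped. The 3 fibroblast markers summed to 2.28 to 2.38 FPKM in W8 heart, against 0.837 to 0.857 FPKM in W8 liver, and to 2.42 to 2.86 FPKM in P1 heart, against 1.98 to 2.30 FPKM in P1 liver. The 3 endothelial markers summed to 2.31 to 2.86 FPKM in W8 heart, against 1.67 to 1.68 FPKM in W8 liver, and to 3.23 to 3.91 FPKM in P1 heart, against 3.00 to 3.37 FPKM in P1 liver, where the ranges overlapped. The 3 smooth muscle markers summed to 1.19 to 2.53 FPKM in W8 heart, against 2.70 to 2.85 FPKM in W8 liver, and to 3.22 to 3.57 FPKM in P1 heart, against 2.81 to 3.52 FPKM in P1 liver. They were thus lower in W8 heart and overlapped at P1. The 2 listed leukocyte markers summed to 1.19 to 1.79 FPKM in W8 heart, against 1.29 to 1.30 FPKM in W8 liver, and to 1.21 to 1.28 FPKM in P1 heart, against 1.84 to 2.02 FPKM in P1 liver. The 1 listed erythroid marker, Klf1, had 0 to 1.21 FPKM in W8 heart, against 2.13 to 2.79 FPKM in W8 liver, and 2.02 to 2.30 FPKM in P1 heart, against 2.30 to 2.46 FPKM in P1 liver. It was at 0 in W8 heart replicate 2, and no other marker of these 5 lists was at 0 in any of these libraries. Their part in the result was not tested. In whole tissue, more cells that carry the mark and more of the mark in each cell cannot be told apart.

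The age dependence of the difference between heart and liver was tested as an interaction of tissue with age, W8 against P1. The change was -0.02 ± 0.38 for Ryr2, -0.08 ± 0.54 for Slc8a1, 0.37 ± 0.36 for Casq2 and 1.21 ± 0.79 for Pln, with adjusted p of 0.981, 0.945, 0.584 and 0.422. limma called 0 of the 4 genes, and 0.0155% of all bodies, and an unadjusted p under 0.05 was found for 0 of the 4 and for 19.5% of all bodies. With W8 heart replicate 2 left out, the changes were 0.40, 0.58, 0.73 and 0.64, again with 0 genes called and 0.0155% of all bodies. At this precision a change in the tissue difference was not detectable. In means of FPKM, the ratio of heart to liver was 1.73, 3.88 and 5.04 for Ryr2 at E14, P1 and W8, and 2.61, 3.13 and 3.72 for Slc8a1. It was 1.84, 2.07 and 3.21 for Casq2, and 7.32, 0.608 and 1.86 for Pln. Unlike the tested differences, these ratios carry no pseudocount, which shrinks differences at low levels such as those of W8 liver. Their rise with age for Ryr2, Slc8a1 and Casq2 is descriptive, and the interaction called none of these genes.

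**Figure D3:**
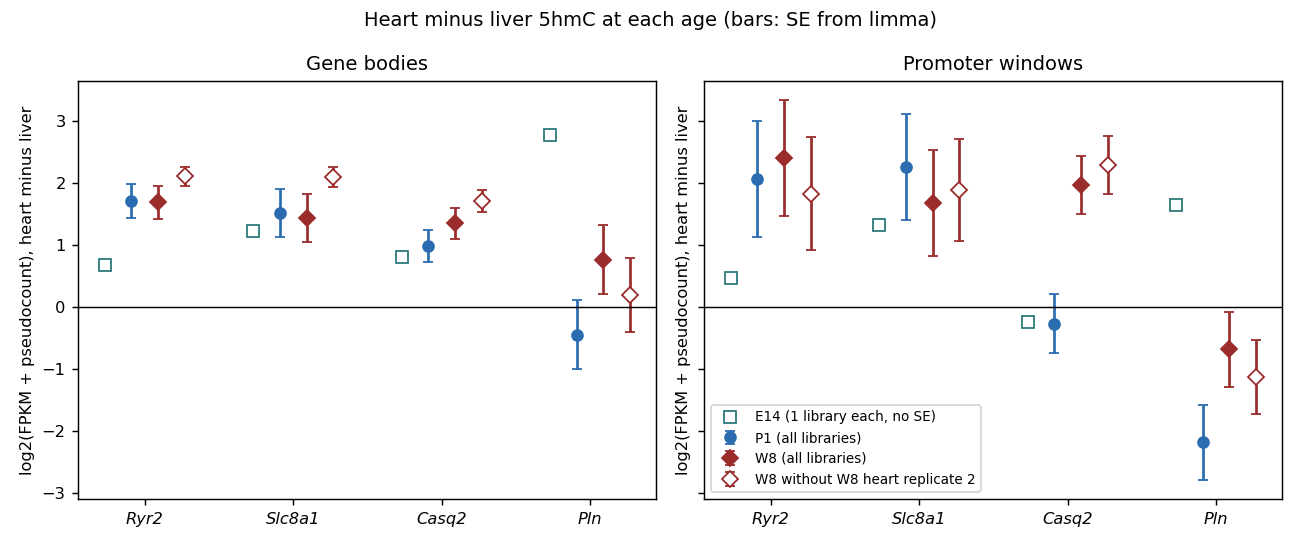
Heart minus liver difference on the log2(FPKM + pseudocount) scale (vertical axis) for the 4 genes (horizontal axis), over gene bodies at left and promoter windows at right. Open squares are E14, with 1 library for each tissue and no error, and filled circles and diamonds are P1 and W8 with SE from limma; open diamonds are W8 without W8 heart replicate 2. Over gene bodies Ryr2, Slc8a1 and Casq2 lie above 0 at each age, and Pln goes from 2.78 at E14 to -0.45 at P1 and 0.76 at W8.

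For E14, with a single library of each tissue, the difference has no replicate check. E14 heart exceeded E14 liver by 0.67 for Ryr2, 1.22 for Slc8a1, 0.80 for Casq2 and 2.78 for Pln (log2), against a median of 0.28 over all bodies. Centred on the medians of the libraries, the differences were 0.35, 0.89, 0.47 and 2.45. Slc8a1 and Pln were past 2-fold, as were 8.27% of all bodies in that direction. The difference of Pln was larger than that of 99.9% of bodies, and that of Ryr2 larger than 77.3%.

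Newborn tissue was also set against ESC, with age, strain and cell source changing together. In P1 heart, Slc8a1 rose by 2.31 ± 0.38 over ESC (4.94-fold, adjusted p = 0.0179) and Ryr2 by 1.07 ± 0.27 (2.10-fold, adjusted p = 0.0469), where 5.65% of all bodies were called higher. The difference of Slc8a1 was larger than that of 99.8% of bodies. Casq2 and Pln differed by 0.29 ± 0.25 and 0.59 ± 0.56 (adjusted p = 0.464 and 0.502). Once W8 heart replicate 2 was left out, the adjusted p was 0.00157 for Slc8a1 and 0.00406 for Ryr2, and 13.9% of all bodies were called higher. Without either ESC library, either P1 heart library or either W8 liver library both calls were lost, and that of Ryr2 also without either P1 liver library. Fewer of all bodies were called in each of these fits too.

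In P1 liver 0 of the 4 genes passed the threshold against ESC, where 15.6% of all bodies did. P1 liver differed from ESC by -0.64 ± 0.27 for Ryr2, 0.79 ± 0.38 for Slc8a1, -0.69 ± 0.25 for Casq2 and 1.05 ± 0.56 for Pln (adjusted p = 0.157, 0.202, 0.108 and 0.244). Of these, Casq2 alone had an unadjusted p under 0.05, at 0.0285, as had 32.2% of all bodies. Leaving out W8 heart replicate 2, the first 3 genes passed, with adjusted p = 0.0138, 0.00774 and 0.0159, where 33.9% of all bodies did. The heart and liver comparisons share the ESC libraries.

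Between newborn and adult, where read format changed as well, Casq2 fell in liver. W8 liver differed from P1 liver by -1.54 ± 0.25 for Casq2 (adjusted p = 0.0158), and 9.39% of all bodies were called lower. Ryr2 and Slc8a1 differed by -0.96 ± 0.27 and -0.997 ± 0.382 (adjusted p = 0.0680 and 0.150) with both W8 libraries below both P1 libraries, and Pln by 0.65 ± 0.56 (adjusted p = 0.534). Leaving out W8 heart replicate 2 put Ryr2, Slc8a1 and Casq2 past the threshold, lower in W8 liver, with adjusted p = 0.00531, 0.00521 and 0.00333, where 21.8% of all bodies were. The call for Casq2 was lost without any 1 of the P1 liver or W8 liver libraries, as were most calls over all bodies. In heart, W8 differed from P1 by -0.98 ± 0.27 for Ryr2, -1.08 ± 0.38 for Slc8a1, -1.17 ± 0.25 for Casq2 and 1.86 ± 0.56 for Pln, with adjusted p between 0.145 and 0.156. limma called 0 of the 4 genes there and 0.0155% of all bodies, although all 4 had an unadjusted p under 0.05, the highest 0.0256, as had 26.4% of all bodies. Without W8 heart replicate 2 the differences were -0.56, -0.42, -0.81 and 1.28, with 0 genes called and 0.00776% of all bodies.

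Promoter windows held far fewer reads than bodies, with a median of 3 to 33.1 per window in the libraries other than W8 heart replicate 2, whose median was 0.986. Over its promoter window Ryr2 had its highest mean in stem cells, overlapping W8 heart, with 0.628 FPKM in E14 heart, 0.393 and 0.692 in P1 heart and 0.651 and 1.53 in W8 heart, then 0.433 in E14 liver, 0 and 0.211 in P1 liver and 0.142 and 0.123 in W8 liver, and 1.86 and 1.26 in ESC. This is the start with 18 CG pairs shown above. The P1 liver library at 0 had no read, and a floor of 3 reads would be 0.786 FPKM in it. The Ryr2 window held 2 and 3 reads in P1 heart, and 19 and 2 reads in W8 heart.

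Slc8a1 had 2.11 FPKM over its window in E14 heart, 2.16 and 1.38 in P1 heart and 1.06 and 0.778 in W8 heart, then 0.806 in E14 liver, 0.262 and 0.351 in P1 liver and 0.225 and 0.245 in W8 liver, and 0 and 0.189 in ESC. Heart libraries were above liver libraries at each age, as over the body, but some of these levels rest on very few reads. The window held 11 and 6 reads in P1 heart, against 1 and 5 in P1 liver, and 31 and 1 in W8 heart, against 8 and 8 in W8 liver. The window stood above 99.7% of all windows of the E14 heart library.

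Casq2 had 0.851 FPKM over its window in E14 heart, 1.77 and 0.922 in P1 heart and 2.45 and 1.56 in W8 heart, then 1.02 in E14 liver, 1.57 and 1.55 in P1 liver and 0.533 and 0.372 in W8 liver, and 2.11 and 2.40 in ESC. The tissues were apart at W8, where W8 heart replicate 2 held 2 reads over the window, and overlapped at P1. In W8 heart replicate 1 the Casq2 window, from 71 reads, stood above 99.9% of windows.

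Pln had 2.28 FPKM over its window in E14 heart, 0.589 and 0.231 in P1 heart and 0.788 and 1.53 in W8 heart, then 0.677 in E14 liver, 2.62 and 1.48 in P1 liver and 1.92 and 1.73 in W8 liver, and 0.248 and 0.442 in ESC. Heart was above liver at E14 and below it in every library at P1 and at W8. The P1 values rest on 4 reads in all in heart, against 31 in liver, and the value of W8 heart replicate 2 on 2 reads.

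**Figure D4:**
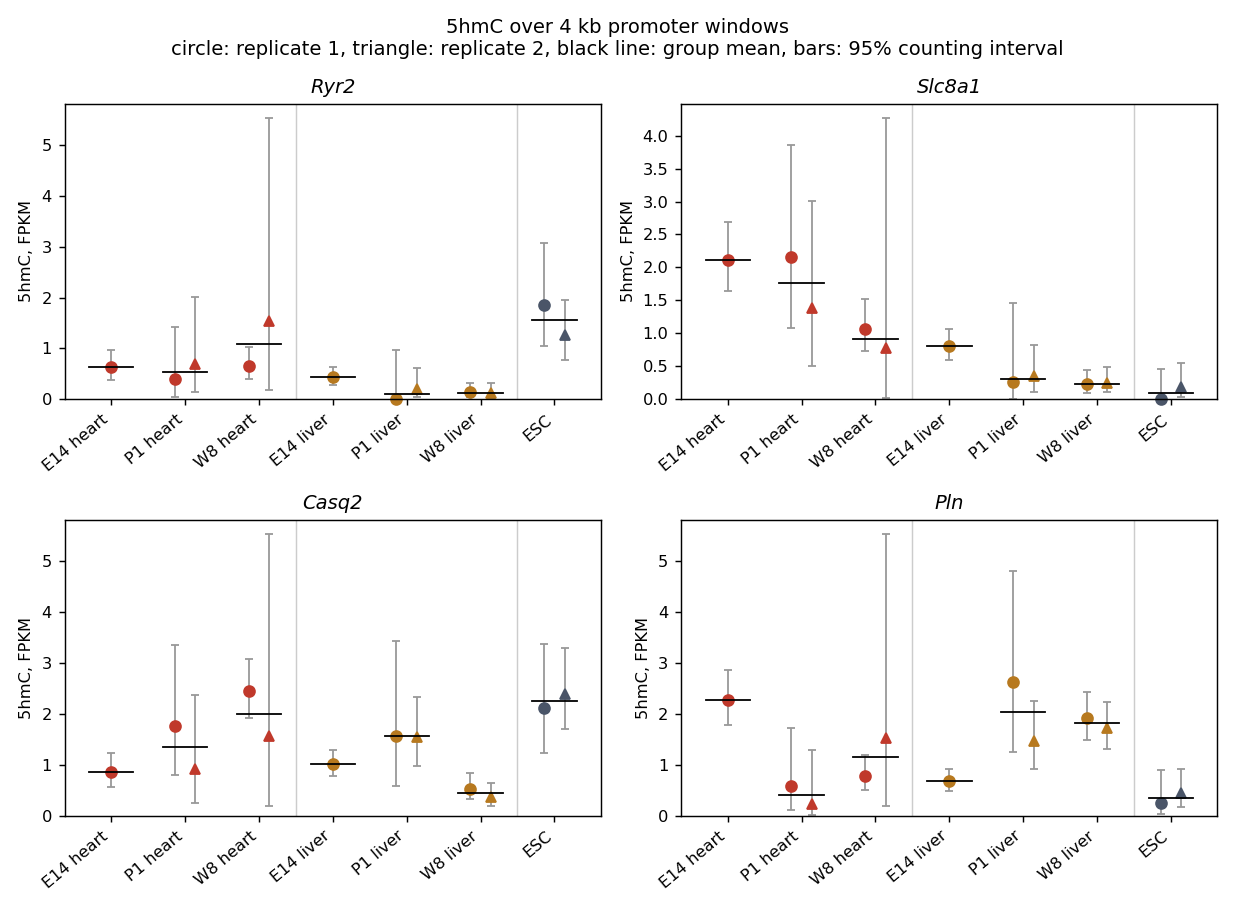
5hmC over the 4000 bp promoter windows of the 4 genes, in FPKM on the vertical axis, in the 7 groups on the horizontal axis, drawn as in the plot of gene bodies. The 95% counting intervals are wide, widest in W8 heart replicate 2. Ryr2 has its highest mean in ESC, Slc8a1 is higher in heart than in liver at each age, and Pln lies below the P1 liver libraries in P1 heart.

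Tested over 12880 windows, 0 of the 4 genes passed the threshold at either age, where limma called 0.00776% of windows at P1 and 0.00776% at W8 (1 window each). At P1 heart minus liver was 2.06 ± 0.94 for Ryr2, 2.26 ± 0.85 for Slc8a1, -0.27 ± 0.47 for Casq2 and -2.19 ± 0.60 for Pln, with adjusted p = 0.544, 0.473, 0.902 and 0.380. At W8 it was 2.40 ± 0.94, 1.68 ± 0.85, 1.97 ± 0.47 and -0.69 ± 0.60, with adjusted p = 0.261, 0.315, 0.236 and 0.555. An unadjusted p under 0.05 was reached at P1 by Ryr2 (0.0454), Slc8a1 (0.0191) and Pln (0.0028), and at W8 by Ryr2 (0.0227) and Casq2 (0.000991); 9.04% of all windows did so at P1 and 17.3% at W8. Without W8 heart replicate 2, Pln at P1 had an adjusted p of 0.0602, and the windows called were 0.464% at P1 and 0% at W8.

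Of 40 other genes of calcium cycling, 35 were listed and 34 passed the filter over gene bodies; Trdn was below it, and Sln, S100a1, Slc8b1, Adrb1 and Mcu were not analysed here. At W8, 10 of the 34 were called higher in heart than in liver, 4 were called lower and 20 did not pass the threshold. That is 29.4% higher and 11.8% lower, where 9.13% and 22.2% of all bodies were. The median over the list was 0.28, against -0.35 over all bodies. Without W8 heart replicate 2 the counts were 14 and 5, or 41.2% and 14.7%, where 12.5% and 28% of all bodies were called higher and lower. With all libraries, the genes called higher by the largest differences between W8 heart and W8 liver were Jph2, Cacna1c, Atp2b4 and Akap6. Jph2, which holds the store close to the surface membrane, differed by 1.38 ± 0.28 (adjusted p = 0.0146). Cacna1c, the pore of the L-type calcium channel, differed by 1.28 ± 0.26 (adjusted p = 0.0133). Atp2b4, a calcium pump of the surface membrane, differed by 1.14 ± 0.16 (adjusted p = 0.00601), and Akap6, an anchor of protein kinase A, by 1.08 ± 0.28 (adjusted p = 0.0273).

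Atp2a2, the pump that Pln restrains, was lower in adult heart than in adult liver. Its difference between W8 heart and W8 liver was -0.98 ± 0.24 (adjusted p = 0.0230), and -0.63 without W8 heart replicate 2 (adjusted p = 0.0240). Its body had 1.22 and 0.718 FPKM in W8 heart, against 1.95 and 1.91 FPKM in W8 liver. At P1 it had 1.50 and 1.78 FPKM in heart, against 1.44 and 1.38 FPKM in liver, a difference of 0.20 ± 0.24 (adjusted p = 0.625). Between W8 heart and P1 heart Atp2a2 differed by -0.75 ± 0.24, which did not pass the threshold (adjusted p = 0.148). The change in the tissue difference of Atp2a2 between P1 and W8 did not pass the threshold either, at -1.19 ± 0.34 (adjusted p = 0.149). The direction at W8 is thus opposite to that of Ryr2, Slc8a1 and Casq2 and is relative to a median of -0.35 over all bodies.

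**Figure D5:**
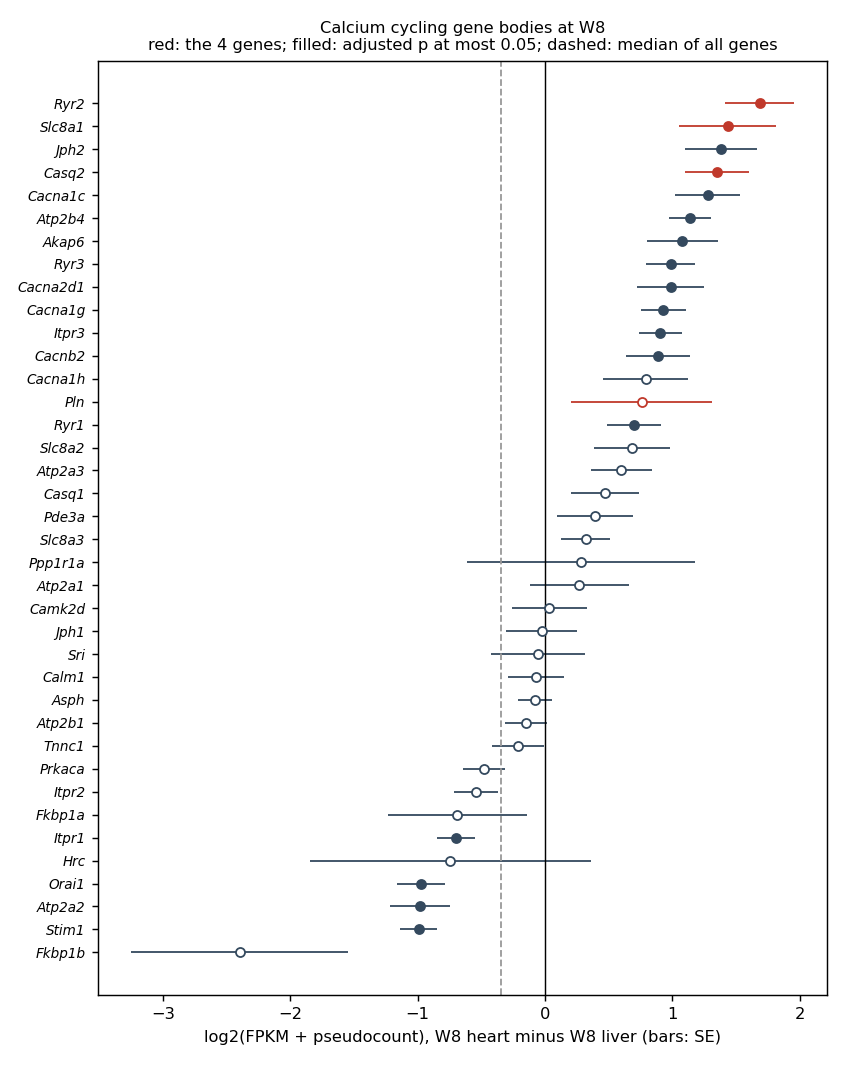
Difference between W8 heart and W8 liver over gene bodies, on the log2(FPKM + pseudocount) scale (horizontal axis, bars SE), for the 4 genes in red and the 34 other calcium cycling genes in dark blue. Filled points passed an adjusted p of 0.05, and the dashed line is the median of all bodies, -0.35. Ryr2 and Slc8a1 stand at the top, and Atp2a2 is among the 4 called lower.

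At P1, limma called 0 of the 34 other genes in heart against liver, where 0.365% of all bodies were called higher and 2.04% lower. An unadjusted p under 0.05 was found for 12 of the 34 (35.3%), against 25% of all bodies, and the median was 0.21, against -0.24 over all bodies. Without W8 heart replicate 2, 11 rose and 2 fell (32.4% and 5.88%), where 5.78% and 17.2% of all bodies did. In P1 heart against ESC, 6 rose and 2 fell (17.6% and 5.88%), where 5.65% and 6.88% of all bodies did. Without W8 heart replicate 2 these counts were 12 and 4 (35.3% and 11.8%), where 13.9% and 19.4% of all bodies were called higher and lower. The largest differences among the called genes were those of Camk2d, a calcium-dependent kinase, at 1.65 ± 0.29 (adjusted p = 0.0202), Cacna1c at 1.42 ± 0.26 (0.0211), Cacnb2, an auxiliary subunit of the L-type channel, at 1.40 ± 0.25 (0.0215) and Pde3a, a cyclic nucleotide phosphodiesterase, at 1.31 ± 0.30 (0.0358). In P1 liver against ESC, 4 rose and 2 fell (11.8% and 5.88%), where 10.8% and 4.82% of all bodies did, and without that library 10 and 7 (29.4% and 20.6%), where 21.6% and 12.3% did. In both directions together the 6 genes are near the share of all bodies called, 15.6%. Of these, Tnnc1, the troponin of slow and cardiac muscle that binds calcium, differed by 0.96 ± 0.21 and Stim1, the calcium sensor of the endoplasmic reticulum, by 0.85 ± 0.15, with adjusted p = 0.0264 and 0.0152. Slc8a2, a second exchanger, and Ryr3, another release channel, fell by 1.30 and 0.88 (adjusted p = 0.0316 and 0.0283).

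With age, 6 of the 34 fell and none rose in W8 liver against P1 liver (15 and 0 without W8 heart replicate 2). The falls were 17.6% of the list, where 9.39% of all bodies fell, and 44.1% without that library, where 21.8% did. The largest falls were those of the inositol trisphosphate receptor Itpr3 (-1.46 ± 0.17, adjusted p = 0.00940), of Ryr1, the release channel of skeletal muscle (-1.19 ± 0.21, adjusted p = 0.0196), of Atp2b4 (-1.17 ± 0.16, adjusted p = 0.0109) and of Atp2a3, another pump of the store (-1.14 ± 0.24, adjusted p = 0.0296). The median of the list was -0.57, against -0.23 over all bodies. In W8 heart against P1 heart limma called 0 of the 34, 18 of them (52.9%) with an unadjusted p under 0.05, against 26.4% of all bodies, with a median of -0.60 against -0.31 over all bodies. As an interaction, and over promoter windows at P1 and at W8, limma called 0 genes of the list. An unadjusted p under 0.05 was found in the interaction for 7 of 34 (20.6%), against 19.5% of all bodies, and over windows for 2 of 35 at P1 (5.71%) and 5 of 35 at W8 (14.3%), against 9.04% and 17.3% of all windows. These shares are near or below those over all regions.

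Across the 12 libraries, which share tissue, age and depth, Ryr2 correlated with Casq2 at r = 0.90 and with Slc8a1 at 0.83, and Slc8a1 with Casq2 at 0.64, on the log2 scale of gene bodies. Pln stood apart, at -0.16 with Ryr2, 0.11 with Slc8a1 and -0.37 with Casq2. The gene bodies most like Ryr2 were those of Myt1l (r = 0.98), Myocd (0.98), which encodes a coactivator of heart and smooth muscle genes, and Dclk1 (0.98). Myt1l had 0.512 and 0.455 FPKM in P1 heart, against 0.272 and 0.240 FPKM in P1 liver. Myocd had 1.55 and 1.51 FPKM in P1 heart, against 0.401 and 0.357 FPKM in P1 liver. For Dclk1 the levels were 0.698 and 0.632 FPKM in P1 heart, against 0.299 and 0.306 FPKM in P1 liver. Those most like Slc8a1 were Cacnb2 (0.99), Hmcn1 (0.99) and Plxna4 (0.98), which stayed the top 3 without W8 heart replicate 2. Those most like Casq2 were Stk32c (0.99), Pdzd2 (0.98) and Satb1 (0.98). For Pln they were Atp5b (0.81), Tnfsf10 (0.77) and Ybx1 (0.74). For Ryr2, Casq2 and Pln, 1 of the 3 genes stayed in the top 3 without that library.

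The nearest listed genes on each side were looked up in RefSeq to see whether the difference reached beyond the 4 bodies. At P1, with all libraries, limma called 0 of the 6 neighbours that passed the filter between heart and liver. Of all bodies, 0.365% were called higher and 2.04% lower. That count of neighbours was not the same without W8 heart replicate 2. Mtr, next to Ryr2, differed by 0.71 ± 0.18 (adjusted p = 0.0755). At W8 it called 2 of the 6, where 9.13% of all bodies were called higher and 22.2% lower. Counts this small do not tell whether the difference reached beyond the 4 bodies. Tmem178, next to Slc8a1, was higher in W8 heart than in W8 liver by 0.89 ± 0.14 (adjusted p = 0.00719) and Vangl1, next to Casq2, by 0.65 ± 0.18 (adjusted p = 0.0325). Pkdcc, on the other side of Slc8a1, and Nhlh2, on the other side of Casq2, differed by -0.49 ± 0.23 and -1.15 ± 0.95 (adjusted p = 0.147 and 0.376). At W8 Mtr differed by 0.11 ± 0.18 (adjusted p = 0.645), and Mcm9, next to Pln, by -0.26 ± 0.19 (adjusted p = 0.313). Chrm3, next to Ryr2, and Slc35f1, next to Pln, were below the filter.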

How the data were processed

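5hmC pull-down DNA of 12 libraries in 7 groups was analysed. Per the submitters' processing notes, Bowtie2 and the mm9 assembly were used for alignment. Neither the Bowtie2 version nor the counting tool is given in the sources used here. The authors' tables, 1 per library, hold FPKM over each gene body and over a promoter window of 4000 bp, per the file headers. No column of per-sample values was left unused.

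Depth was recovered from the steps between low FPKM values, which were whole multiples of 1 read within 0.01 reads in paired-end libraries. In single-end libraries low values fell on 2 step sizes (ratio 1.03), so read numbers there are approximate. Of the 13581 genes, 13549 had a body of positive length. Counting intervals are exact 95% Poisson intervals and cover counting error only, since reads carry no molecular identifiers.

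Values were taken as log2(FPKM + 0.0746) for bodies and log2(FPKM + 0.0723) for windows, where the constant is the non-zero median over 10, so that fold changes of low genes are understated. Regions with a mean under 0.208 FPKM (bodies) or 0.236 FPKM (windows), the 5th percentile of non-zero means, were left out. A linear model with a mean for each of the 7 groups was fitted to the 12 libraries in limma (3.58.1, R 4.3.3), variances being moderated by a trend on the mean. Benjamini-Hochberg adjustment was made separately for each of 9 comparisons, with a threshold of 0.05. The scripts were tested on simulated data.

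The 4 genes, the other calcium genes and the marker lists were chosen with earlier results of these data known. The text names the 4 genes in every comparison, the called genes of the calcium list with the 4 largest absolute differences, Atp2a2, and the 3 bodies with the highest Pearson r with each member. Promoter sequences, chromosomes and neighbours come from RefSeq (GRCm38.p6), where all 4 genes matched; no coordinates were converted between builds. Alternatives were another pseudocount, no filter, median centring, the compared groups alone, a replicate block, library weights and leaving out each library.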

Additional observations from a re-analysis of the deposited data

Results flagged for a closer look

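Over gene bodies Ryr2 differed between P1 heart minus ESC (1.07) and P1 liver minus ESC (-0.64). The difference of 1.71 between these effects passed limma's test (adjusted p = 0.0430), where 0.365% of all bodies were called higher. It is the same quantity as P1 heart minus P1 liver because the ESC libraries cancel. As there, limma's call was lost with the compared groups alone (adjusted p = 0.0922) and with a replicate block (adjusted p = 0.0648).

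Over its promoter window Casq2 was lower in heart than in liver at E14, by -0.24 (log2) from 1 library for each tissue. The window held 27 reads in E14 heart, against 63 in E14 liver. The 95% counting intervals, 0.561 to 1.24 FPKM in heart and 0.779 to 1.30 FPKM in liver, overlapped. Both W8 heart libraries were above both W8 liver libraries, although W8 heart replicate 2 held 2 reads there. This change of direction was not tested.

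Over its promoter window Pln was higher in heart than in liver at E14, by 1.65 (log2) from 72 reads in heart, against 42 in liver. At P1 and at W8 each heart library was below each liver library. The P1 heart libraries held 3 reads and 1 read over this window, and W8 heart replicate 2 held 2. These 2 changes of direction, E14 against P1 and E14 against W8, were not tested.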

How the results depend on the processing

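Of 575 alternative values of the 36 differences tested for the 4 genes, 485 kept their direction and side of the threshold, 35 passed it in addition, 44 lost it and 11 changed sign. Only 9 of the 36 differences kept direction and side in every alternative. None of the 11 values that changed sign passed the threshold, and the cause of the changes was not tested. Sign changes were, over bodies, Pln at P1 in heart against liver (0.36 without P1 liver replicate 2) and in W8 liver against P1 liver (-0.16 without P1 liver replicate 1), and, in the interaction, Casq2 (-0.088 at a pseudocount of 1 FPKM), Ryr2 (0.0494 after median centring, 0.0491 without P1 heart replicate 2, 0.033 without P1 liver replicate 2 and 0.40 without W8 heart replicate 2) and Slc8a1 (0.045 without P1 liver replicate 2 and 0.58 without W8 heart replicate 2). Over promoter windows Casq2 changed sign at P1 (0.16 after median centring and 0.17 without P1 heart replicate 2). Leaving out 1 library at a time, these values ranged from -1.26 to 0.36 and from -0.16 to 1.46 for Pln, from -0.44 to 0.40 for Ryr2 and from -0.74 to 0.58 for Slc8a1 in the interaction, and from -0.71 to 0.17 for the Casq2 window.

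Replicate numbers did not pair the libraries: over 10 pairs of groups the correlation of same-numbered deviations was -0.02 to 0.04. With a replicate block, 0 of the 4 genes were called in P1 heart against P1 liver, among 4 of all bodies. In P1 heart against ESC that block gave 1 of the 4 genes, among 1225 of all bodies. It gave 0 bodies in the interaction and 0 in W8 heart against P1 heart.

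With the compared groups alone, which leaves fewer libraries for the spread, 0 genes were called at P1 and 0 at W8 in heart against liver, among 0 bodies each, 3 in P1 liver against ESC (3373 bodies), 2 in W8 liver against P1 liver (3383 bodies), and 0 bodies in the interaction, 0 in W8 heart against P1 heart and 0 windows at P1 and at W8. With library weights, 3 genes were called in P1 heart against P1 liver (1284 bodies), 1 in W8 heart against W8 liver (462), 3 in P1 liver against ESC (4397), 3 in W8 liver against P1 liver (4262) and 1 over windows at P1 (131 windows), with 3444 bodies in P1 heart against ESC, 0 in the interaction, 0 in W8 heart against P1 heart and 0 windows at W8. A pseudocount of 1 FPKM gave 3 genes in P1 heart against P1 liver (888 bodies), 0 bodies in W8 heart against P1 heart, and 32 windows at P1 and 38 at W8. Median centring gave 126 bodies in P1 heart against P1 liver, 1 in W8 heart against P1 heart, 793 in W8 liver against P1 liver and 3 windows at W8.

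Leaving out 1 library at a time, the genes called ranged from 0 to 3 in P1 heart against P1 liver (0 to 2962 bodies), 0 to 3 in W8 heart against W8 liver (0 to 6034), 0 to 1 in the interaction (0 to 3836), 0 to 2 in P1 heart against ESC (0 to 4285), 0 to 3 in P1 liver against ESC (0 to 4381), 0 to 4 in W8 heart against P1 heart (0 to 5038), 0 to 3 in W8 liver against P1 liver (0 to 3291), and over windows 0 at P1 (0 to 114 windows) and 0 to 2 at W8 (0 to 5320). The 4 genes called in W8 heart against P1 heart, the 1 in the interaction (Slc8a1, -0.74, adjusted p = 0.0430) and the 2 over windows at W8 came from the fit without W8 heart replicate 1, in which W8 heart was the library of 142778 reads alone.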
